A study of Mus musculus with 6 samples.

Results

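The smooth muscle contractile genes are 10 genes whose proteins form or control the actin and myosin filaments of smooth muscle: Actg2, Acta2, Myh11, Tagln, Cnn1, Des, Lmod1, Mylk, Smtn and Myocd. They were picked by symbol from the 30462 genes of the table, and the choice was made with their knockout against wild type differences already known, so they were selected on the contrast that is described here. Their differences between the genotypes are therefore given as a description. Where a fit across all genes called some of the 10, the count is printed beside the share of all genes called and supports nothing. RNA of the cochlea, the coiled part of the inner ear that serves hearing, was sequenced at postnatal day 7 in 6 libraries. The first group holds 3 libraries from mice whose genotype label is NEU4 KO (KO 2, KO 4 and KO 5), a mutant of the sialidase gene Neu4. The other holds 3 libraries from wild-type mice (WT 3, WT 4 and WT 5). The labels name no allele, strain or number of animals per library, so the spread between libraries may be partly technical. Levels are FPKM values as the authors deposited them, that is, fragments scaled by exon length and library total, and can be compared between genes.

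Smooth muscle surrounds arteries and arterioles, and the cochlea has such vessels, the spiral modiolar artery among them. Contraction starts when calcium and calmodulin activate myosin light chain kinase, which phosphorylates the regulatory light chain so that smooth muscle myosin pulls on filaments of smooth muscle actin. The genes of this apparatus are switched on together by serum response factor with its coactivator myocardin, which bind a DNA motif known as the CArG box. Pericytes, the mural cells of capillaries, share some of these genes at lower levels, and myofibroblasts also make the vascular smooth muscle actin.

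The promoters of an actin gene and of a light chain gene, which is not among the 10, are printed as examples of this motif. Both windows run from 250 bases before to 50 bases after the start site (RefSeq, GRCm38.p6) and are printed in the direction of transcription. Capitals mark each CArG box, either with its 6 central bases all A or T or with 1 of these 6 replaced.
Acta2, chr19:34255324-34255623, minus strand: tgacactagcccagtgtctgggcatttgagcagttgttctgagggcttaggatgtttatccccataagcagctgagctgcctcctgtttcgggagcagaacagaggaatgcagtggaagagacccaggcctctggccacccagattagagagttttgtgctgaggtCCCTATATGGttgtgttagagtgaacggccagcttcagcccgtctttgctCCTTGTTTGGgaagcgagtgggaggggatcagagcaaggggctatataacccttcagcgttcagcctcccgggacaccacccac
Myl9, chr2:156775214-156775513, plus strand: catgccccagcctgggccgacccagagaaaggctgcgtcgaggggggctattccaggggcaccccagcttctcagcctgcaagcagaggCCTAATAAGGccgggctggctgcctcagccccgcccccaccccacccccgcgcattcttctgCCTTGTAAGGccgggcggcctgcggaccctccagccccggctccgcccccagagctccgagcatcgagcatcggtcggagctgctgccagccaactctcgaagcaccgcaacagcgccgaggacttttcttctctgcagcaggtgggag
In Acta2 the boxes began 84 and 34 bases before the start site, and each held 1 replaced base. In Myl9, the regulatory light chain gene, a box with no replaced base began 161 bases before the start site and one with 1 replaced base began 99 bases before it. Of the 10 genes, 6 had a promoter in the table used (Acta2, Cnn1, Des, Lmod1, Mylk and Smtn), and 0 of these held a box with no replaced base, which 1.63% of all 32851 promoters did. With 1 replaced base allowed, 1 of the 6 (Acta2) held a box, against 9.98% of all promoters. The letters were searched so that both strands were covered, and a window of this length says nothing of boxes further upstream or in introns.

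Library totals recovered from the FPKM values were 15170973 to 17192293 fragments, and each library had 13916 to 14154 genes at an FPKM of at least 1. The tissue label was met by the tectorial membrane gene Tectb (110.6 ± 9.39 against 95.2 ± 1.21 FPKM in knockout and wild type libraries) and by the hair cell myosin gene Myo7a (5.95 ± 0.213 against 5.86 ± 0.426). Neu4 RNA was scarce in either group (0.0797 ± 0.0255 and 0.0779 ± 0.0242 FPKM, SD, n = 3 each; exact two-sided permutation p = 0.8, smallest possible p 0.1). Its RNA therefore did not check the genotype labels. By Xist and Ddx3y, KO 2, WT 3 and WT 4 were male, and KO 4, KO 5 and WT 5 were female. Of the 14072 genes tested, those that reached an FPKM of 1 in 3 or more libraries, 47 (0.334%) changed between the genotypes (limma on log2(FPKM + 1), Benjamini-Hochberg adjusted p under 0.05), 18 higher and 29 lower in knockout libraries. Median-ratio scaling gave 11 higher and 37 lower. The balance was turned in voom on recovered fragments (217 higher and 164 lower) and at an unadjusted p under 0.05 (1489 higher and 983 lower, limma).

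The contractile genes were lower in the knockout libraries as a group, least in Mylk and most in Myh11. Of the 10 genes, 8 passed the filter, each of them with an FPKM of at least 1.29 in every library, and 2 (Tagln and Myocd) did not. The 8 genes had log2 fold changes of -1.33 to -0.10 with a median of -0.50, while the median of all genes tested was 0.02. Their median was -0.27 without WT 5 and -0.33 without KO 4. In 5 of the 8 (Actg2, Acta2, Myh11, Cnn1 and Smtn) each knockout library was below each wild type library, which held for 9.54% of all genes tested. In the fit across all genes 1 of the 8, Actg2, was called, against 0.334% of all genes tested. These counts describe genes that were chosen for this difference and are no evidence for it.

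**Figure D1:**
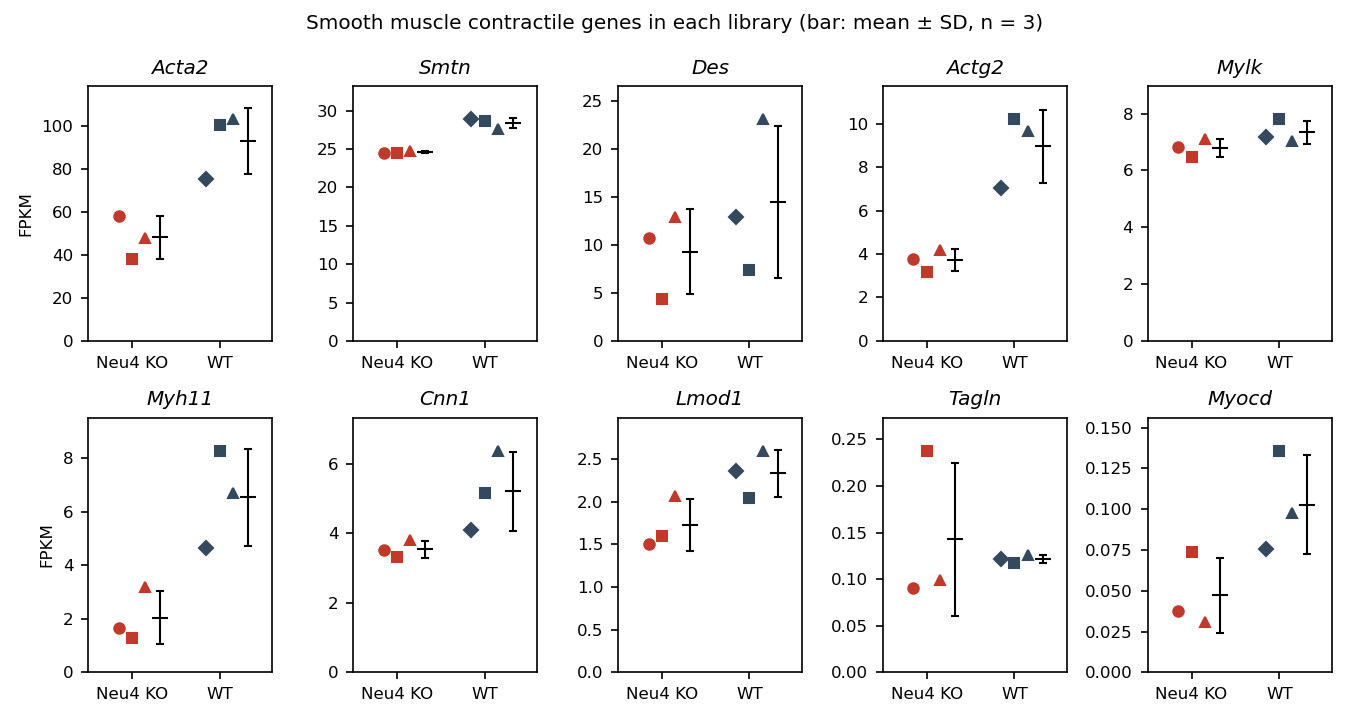
FPKM of the 10 genes in each library, in order of their wild type mean, with knockout libraries in red and wild type libraries in dark blue. Squares are replicate 4 and triangles replicate 5 of each group, the red circle is KO 2, the diamond is WT 3, and black bars give the mean and SD (n = 3). Red and blue points separate in Acta2, Smtn, Actg2, Myh11, Cnn1 and narrowly in Myocd, and they mix in Des, Mylk, Lmod1 and Tagln.

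Acta2, which encodes the actin of vascular smooth muscle (chromosome 19, 34241090 to 34255590, minus strand, GRCm38), had by far the highest level. It had 58.1, 38.2 and 47.8 FPKM in KO 2, KO 4 and KO 5, against 75.0, 100.4 and 102.9 FPKM in WT 3, WT 4 and WT 5. All knockout values lay below the lowest wild type value, the gap being that between KO 2 and WT 3. The means were 48.0 ± 9.96 FPKM in knockout and 92.8 ± 15.4 FPKM in wild type libraries (SD, n = 3 each), a ratio of 0.518 and a log2 fold change of -0.94 (SE 0.17). The gene rested on 1418 to 2125 fragments in knockout libraries and on 2719 to 3791 in wild type libraries. In bulk tissue, fewer smooth muscle cells and less RNA per smooth muscle cell cannot be told apart.

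Actg2, the enteric or visceral type of smooth muscle actin (chromosome 6, 83512905 to 83536265, minus strand), followed Acta2 at a far lower level. Its values were 3.78, 3.19 and 4.19 FPKM in KO 2, KO 4 and KO 5, against 7.04, 10.2 and 9.64 FPKM in WT 3, WT 4 and WT 5. The highest knockout value was 0.595 of the lowest wild type value, the widest gap among the 10 genes. The log2 fold change was -1.07 (SE 0.14), from means of 3.72 ± 0.504 FPKM in knockout and 8.96 ± 1.69 FPKM in wild type libraries. Within each library the ratio of Actg2 to Acta2 was 0.0650, 0.0836 and 0.0877 in the knockout libraries, against 0.0939, 0.102 and 0.0937 in the wild type libraries, so that Actg2 was low relative to Acta2 as well. The actins are alike in their coding sequence, but 0 of the 1592 stretches of 50 bases in Actg2 transcripts occurred in another gene's transcripts, and 7 of 2146 did so in Acta2. The other actin genes served as a comparison. The cytoplasmic actins were at 699.9 ± 7.38 against 730.2 ± 29.4 FPKM (Actb) and 360.2 ± 3.67 against 369.3 ± 16.1 FPKM (Actg1) in knockout and wild type libraries, with log2 fold changes of -0.06 (SE 0.051) and -0.04 (SE 0.048). Of the 4 other actin genes, 0 were called. Skeletal Acta1 and cardiac Actc1 varied widely within both groups (95.9 ± 70.0 against 183.3 ± 124.6 FPKM and 2.18 ± 2.62 against 9.67 ± 10.05 FPKM).

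Myh11, the heavy chain of smooth muscle myosin and the most specific marker of mature smooth muscle (chromosome 16, 14194535 to 14291372, minus strand), differed the most. It had 1.67, 1.29 and 3.18 FPKM in KO 2, KO 4 and KO 5, against 4.66, 8.28 and 6.69 FPKM in WT 3, WT 4 and WT 5. The groups did not overlap, although KO 5 stood well above the other knockout libraries. The knockout mean of 2.05 ± 1.00 FPKM was 0.313 of the wild type mean of 6.55 ± 1.81 FPKM (log2 fold change -1.33, SE 0.25). Set against Acta2 within the same library, Myh11 was low in KO 2 (0.0287) and KO 4 (0.0338) but not in KO 5 (0.0666), the wild type ratios being 0.0622, 0.0825 and 0.0650. The nonmuscle heavy chains Myh9 (49.2 ± 3.14 against 50.95 ± 3.40 FPKM in knockout and wild type libraries) and Myh10 (25.3 ± 1.61 against 24.1 ± 0.374 FPKM) had log2 fold changes of -0.05 (SE 0.066) and 0.06 (SE 0.053), and their groups overlapped.

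Mylk, the kinase that switches smooth muscle myosin on (chromosome 16, 34745210 to 35002420, plus strand), was nearly level between the genotypes. Its values were 6.83, 6.47 and 7.09 FPKM in KO 2, KO 4 and KO 5, against 7.18, 7.80 and 7.03 FPKM in WT 3, WT 4 and WT 5. KO 5 lay above WT 5, and the log2 fold change of -0.10 had an SE of 0.06. Its gene also makes a long nonmuscle kinase, which FPKM per gene does not separate from the smooth muscle form. With 1211 to 1281 fragments in knockout and 1266 to 1510 in wild type libraries, its counting error was small.

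Cnn1 and Smtn bind the actin filament. Cnn1, calponin 1, which restrains the myosin motor (chromosome 9, 22099216 to 22109630, plus strand), had 3.51, 3.33 and 3.81 FPKM in KO 2, KO 4 and KO 5, against 4.10, 5.17 and 6.38 FPKM in WT 3, WT 4 and WT 5. The groups did not overlap, but the gap between KO 5 and WT 3 was small and the wild type libraries spread over 1.56-fold. Its log2 fold change was -0.44 (SE 0.13). Smtn, smoothelin, a filament protein of contractile smooth muscle (chromosome 11, 3517523 to 3540612, minus strand), was the steadiest of the genes. It had 24.5, 24.5 and 24.8 FPKM in KO 2, KO 4 and KO 5, against 28.9, 28.7 and 27.6 FPKM in WT 3, WT 4 and WT 5. The difference was small (ratio 0.866, log2 fold change -0.20, SE 0.04), and it exceeded the spread within the groups. Of the exon bases of Smtn, 16.3% also lie in exons of genes on the opposite strand, and no source used here says whether fragments were counted by strand.

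Lmod1 and Des were lower on average with groups that overlapped. Lmod1, leiomodin 1, which nucleates smooth muscle actin filaments (chromosome 1, 135324807 to 135368065, plus strand), had 1.51, 1.601 and 2.07 FPKM in KO 2, KO 4 and KO 5, against 2.36, 2.05 and 2.60 FPKM in WT 3, WT 4 and WT 5. KO 5 and WT 4 were almost level, and the log2 fold change was -0.29 (SE 0.11). Des encodes desmin, the intermediate filament protein of skeletal, cardiac and smooth muscle (chromosome 1, 75360329 to 75368579, plus strand). It had 10.7, 4.34 and 12.9 FPKM in KO 2, KO 4 and KO 5, against 12.9, 7.42 and 23.1 FPKM in WT 3, WT 4 and WT 5. Its libraries ran in an order of their own, with KO 4 and WT 4 lowest and WT 5 highest, and the log2 fold change of -0.57 had an SE of 0.46.

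Des ran in the order of the skeletal muscle markers, and the other smooth muscle genes had no common order. From low to high, Des ran KO 4, WT 4, KO 2, KO 5, WT 3 and WT 5, and the mean of the 14 skeletal muscle markers tested had the same order. Actg2 and Myh11 ran KO 4, KO 2, KO 5, WT 3, WT 5 and WT 4, with the knockout libraries first. Acta2, Cnn1 and Smtn also had the knockout libraries first, in other orders. Lmod1 and Mylk mixed the groups, and Lmod1 ended in KO 5, WT 3 and WT 5 as Des did. The summed level of the 21 skeletal muscle markers was 39.1 to 300.04 FPKM in knockout and 167.8 to 714.3 FPKM in wild type libraries, and Acta1, Mylpf and Tnnt3 led it. KO 4 had both the lowest skeletal muscle sum and the lowest value of 7 of the 10 smooth muscle genes. Without KO 4, the log2 fold changes were -0.15 for Des, -0.99 for Actg2, -0.79 for Acta2 and -1.15 for Myh11. Without WT 5, they were -0.18, -1.01, -0.86 and -1.30 in the same order.

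**Figure D2:**
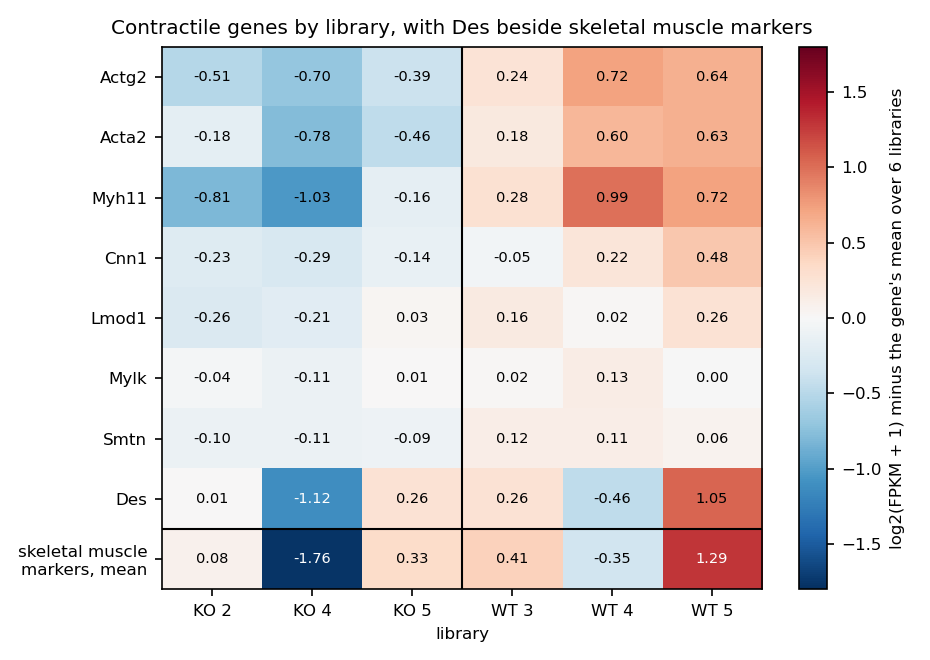
Level of each of the 8 genes in each library as log2(FPKM + 1) minus the gene's mean over the 6 libraries, with knockout libraries left of the line and wild type libraries right of it. The bottom row is the mean over 14 skeletal muscle markers, and Des stands next to it. Actg2, Acta2 and Myh11 are blue in the 3 knockout libraries and red in the 3 wild type libraries, while Des and the skeletal muscle markers are lowest in KO 4 (-1.12 and -1.76) and highest in WT 5 (1.05 and 1.29).

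Tagln and Myocd were too low to be tested. Myocd, the coactivator myocardin (chromosome 11, 65176561 to 65269989, minus strand), had 4, 8 and 3 fragments in KO 2, KO 4 and KO 5, against 8, 15 and 10 in WT 3, WT 4 and WT 5. The knockout values of 0.0374, 0.0736 and 0.0308 FPKM lay below the wild type values of 0.0754, 0.136 and 0.0974 FPKM, with KO 4 and WT 3 almost touching. The ratio of fragment rates, 15 against 33 fragments in all, was 0.463 with a 95% interval of 0.234 to 0.877, which covers counting error and not the spread between libraries. Tagln, transgelin or SM22 (chromosome 9, 45929619 to 45936058, minus strand), is usually among the most abundant RNAs of smooth muscle, but it was listed at 0.0906, 0.238 and 0.0995 FPKM in KO 2, KO 4 and KO 5, against 0.122, 0.117 and 0.126 FPKM in WT 3, WT 4 and WT 5. That is 3, 8 and 3 fragments against 4, 4 and 4, and no difference was detectable from so few fragments. Of the 1988 exon bases of Tagln in GENCODE M21, 67.9% also lie in exons of opposite-strand genes, 62.4% in the antisense gene Gm48529 alone. Of the genes in all lists used here, 4 share over 50% of their exon bases in this way (Tagln, Tnnc2, Pln and Nppa), and none of these 4 exceeded 0.305 FPKM in any library. Tnnc2, the troponin C of fast skeletal muscle, was at 0.235 FPKM or less where its partner Tnnt3 averaged 19.6 FPKM in knockout and 37.4 FPKM in wild type libraries. No source used here says how fragments that match genes on both strands were counted, and the part of this overlap in the low values was not tested. The relative Tagln2, which is made in many cell types, was at 53.7 ± 2.44 FPKM in knockout and 67.1 ± 4.36 FPKM in wild type libraries (log2 fold change -0.31, SE 0.059, adjusted p = 0.0881, limma).

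In order of their wild type levels the genes ran Acta2, Smtn, Des, Actg2, Mylk, Myh11, Cnn1, Lmod1, Tagln and Myocd. In the wild type libraries Acta2 stood clear of Smtn and Smtn of Des, whereas the values of Des, Actg2, Mylk, Myh11 and Cnn1 overlapped from each gene to the next. Lmod1 was below Cnn1, and Tagln and Myocd overlapped. In knockout libraries Mylk was above Actg2, and Acta2 made up 45.1% to 52.5% of the summed FPKM of the 10 genes, against 52.7% to 58.97% in wild type libraries. The sums were 110.7, 83.2 and 105.9 FPKM in KO 2, KO 4 and KO 5, against 142.3, 170.3 and 186.2 FPKM in WT 3, WT 4 and WT 5. Tagln entered the order, the shares and the sums at its listed values, and how its fragments were counted is not known.

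The sexes were unequal between the groups, so the genes were also compared within each sex. Among males, the ratio of KO 2 to the mean of WT 3 and WT 4 was 0.438 for Actg2, 0.662 for Acta2 and 0.257 for Myh11. Among females, the ratio of the mean of KO 4 and KO 5 to WT 5 was 0.383 for Actg2, 0.418 for Acta2 and 0.334 for Myh11. The knockout side was lower in 7 of the 8 genes among males, the exception being Des (1.05), and in 8 of 8 among females. KO 2 and WT 5 each stand alone on their side. The genes were chosen on this contrast in these same libraries, so the directions within each sex support nothing. With sex as a covariate, the log2 fold changes of the 8 genes were of the same sign, and Actg2 was no longer called.

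The 38 other genes of smooth muscle contraction, a list also drawn up with results of these data known, were split in direction. Of the 36 that could be tested, 1 was lower (Aoc3) and 0 were higher at an adjusted p under 0.05 (limma), against 0.334% of all genes called. Their median log2 fold change was -0.10, and 23 were lower and 13 higher on average. In 11 of them the knockout libraries all lay below the wild type libraries (9.54% of all genes), and in 9 they all lay above (15.2% of all genes). Aoc3, a vascular amine oxidase of smooth muscle and fat cells, fell to 6.22 ± 0.265 FPKM in knockout libraries, against 9.08 ± 0.0730 FPKM in wild type libraries (log2 fold change -0.48, SE 0.050, lower in 3 of 3 knockout libraries than in any wild type one, adjusted p = 0.0191). That call was lost with sex as a covariate (adjusted p = 0.0571, limma) and with a replicate block (0.177). It was also lost without any 1 library other than KO 5 (0.0734 to 0.106). The abundant members Flna, the actin crosslinker filamin A (129.0 ± 2.01 against 137.9 ± 2.27 FPKM), and Myl6, the essential light chain (101.7 ± 2.48 against 104.7 ± 2.83 FPKM), were not called. Csrp1 was at 70.0 ± 3.76 FPKM in knockout and 87.9 ± 3.10 FPKM in wild type libraries (log2 fold change -0.33, SE 0.052, adjusted p = 0.0686, limma). It was called lower with a mean FPKM of at least 5 (0.0418), with median-ratio scaling (0.0474) and in voom (0.0152). Cav1 was called lower in voom (0.0249) and without KO 5 (0.0168). Synm, which encodes the desmin partner synemin, pointed the other way, at 4.30 ± 0.205 FPKM in knockout and 3.05 ± 0.189 FPKM in wild type libraries (log2 fold change 0.39, SE 0.067, adjusted p = 0.0756, limma). It was called higher in voom (0.0147). Tpm2, Ldb3 and Pdlim3, which skeletal muscle also makes, had log2 fold changes of -0.57, -0.70 and -0.58 with groups that overlapped.

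**Figure D3:**
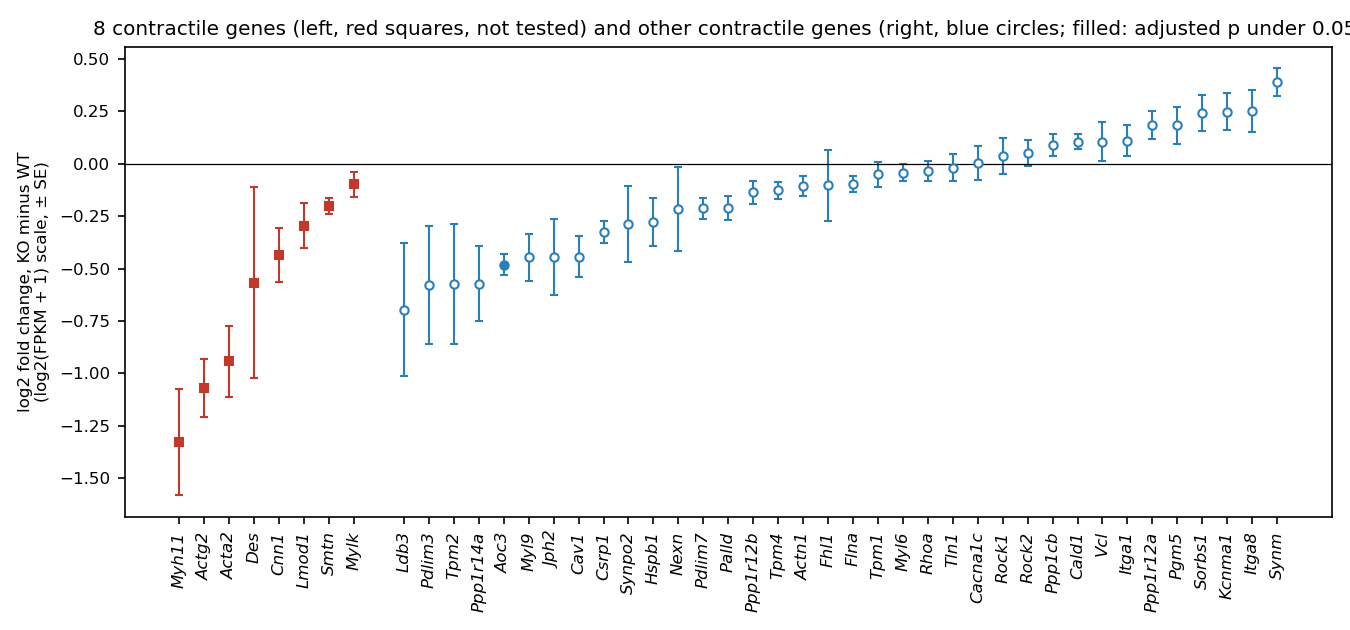
Log2 fold change, knockout minus wild type, on the log2(FPKM + 1) scale with its SE, for the 8 contractile genes above the filter (red squares) and for 36 other contractile genes (blue circles, filled where the adjusted p was under 0.05). Myh11, Actg2 and Acta2 lie lowest, the other genes run from -0.70 (Ldb3) to 0.39 (Synm), and Aoc3 is the filled circle.

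Regulators of the smooth muscle programme were measured next. Of 28 tested, 1 was lower (Bvht) and 0 were higher (limma, adjusted p under 0.05), against 0.334% of all genes called. Their median log2 fold change was -0.06. In 5 of the 28 each knockout library was below each wild type library (9.54% of all genes), and in 4 above (15.2%). Srf, the factor that binds CArG boxes, was at 21.4 ± 1.12 FPKM in knockout and 23.9 ± 0.852 FPKM in wild type libraries (log2 fold change -0.15, SE 0.052, adjusted p = 0.212). Its myocardin-related partners were not called either, with log2 fold changes of -0.15 (Mrtfa) and 0.05 (Mrtfb). Klf4, a repressor of the contractile genes, was at 52.2 ± 4.81 against 49.2 ± 2.85 FPKM, and the growth factor gene Tgfb1 at 37.9 ± 5.68 against 39.4 ± 1.28 FPKM, in knockout and wild type libraries. Bvht, a long non-coding RNA next to the microRNA genes Mir143 and Mir145a of smooth muscle, fell to 10.35 ± 0.412 FPKM in knockout libraries, against 15.0 ± 1.30 FPKM in wild type libraries (log2 fold change -0.50, SE 0.067, adjusted p = 0.0457). The call of Bvht was lost with sex as a covariate (0.0840), with no filter on low values (0.130), without a trend (0.0944), with a replicate block (0.136), without any 1 library (0.0714 to 0.173) and in voom (0.0508). Carmn, the host RNA of those microRNAs, had a log2 fold change of -0.21 (SE 0.10, adjusted p = 0.336). The factor genes Mef2a and Mef2c were higher in each knockout library, at 15.0 ± 0.229 against 12.3 ± 0.207 FPKM and 21.1 ± 0.535 against 16.5 ± 1.147 FPKM in knockout and wild type libraries. They were not called as reported (adjusted p = 0.0592 and 0.0735, limma), but were called with a mean FPKM of at least 5 (0.0372 and 0.0421) and in voom (0.00974 and 0.0110). Notch3, a receptor of mural cells, was at 11.5 ± 0.187 against 14.1 ± 0.780 FPKM (adjusted p = 0.0924, limma) and was called lower in voom (0.0249).

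Counts recovered from the FPKM values gave a view of genes below the filter, as an alternative chosen after seeing the data (voom in limma). Of the 13796 genes of the main filter with whole counts, 381 (2.76%) were called by voom. Of the 8 smooth muscle genes, 4 (Actg2, Acta2, Myh11 and Smtn) were among them, with log2 fold changes of -1.26, -0.96, -1.77 and -0.21. As these genes were chosen on the same contrast, nothing is read from that count. Over the 21282 genes with at least 10 fragments, 388 (1.82%) were called. Gata6, a transcription factor of vascular smooth muscle that the filter had left out, was one of these. It had 11, 9 and 14 fragments in KO 2, KO 4 and KO 5, against 36, 51 and 56 in WT 3, WT 4 and WT 5 (log2 fold change -2.01, SE 0.37, lower in 3 of 3, adjusted p = 0.0206, voom). Kcnmb1, the smooth muscle subunit of the calcium-activated potassium channel, had 5, 7 and 5 fragments, against 18, 27 and 16, and was not called (log2 fold change -1.71, SE 0.46, adjusted p = 0.0877, voom). Both genes were singled out after their values were seen.

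Markers of neighbouring cell types were measured beside the contractile genes. Of the 16 pericyte and mural cell markers tested 0 were called (limma; smallest adjusted p = 0.0548), and 14 were lower on average, with a median log2 fold change of -0.20. In 5 of the 16 each knockout library was below each wild type library (9.54% of all genes). Anpep and Mcam were called lower with a mean FPKM of at least 5 (adjusted p = 0.0316 and 0.0399, limma), with median-ratio scaling (0.0416 and 0.0474) and in voom (0.0158 and 0.0137), Mcam also without KO 5 (0.0273), and Kcnj8 in voom (0.0490). The pericyte gene Rgs5 was at 25.6 ± 1.501 FPKM in knockout and 24.3 ± 1.13 FPKM in wild type libraries (log2 fold change 0.07, SE 0.057). Pdgfrb, the receptor that marks mural cells, was at 50.4 ± 3.35 against 53.5 ± 3.21 FPKM (log2 fold change -0.08, SE 0.064), S1pr3 at 33.1 ± 2.81 against 33.1 ± 0.691 FPKM and Mcam at 30.6 ± 1.96 against 39.3 ± 1.57 FPKM (adjusted p = 0.0686). The summed level of the 18 pericyte and mural markers was 252.1 to 264.0 FPKM in knockout and 279.5 to 293.6 FPKM in wild type libraries. The 15 endothelial markers summed to 202.5 to 216.2 FPKM in knockout and 221.6 to 241.3 FPKM in wild type libraries, with 0 of 15 called (limma, smallest adjusted p = 0.144). In 9 of the 15 each knockout library was below each wild type library (9.54% of all genes), and in 1 (Kdr) above (15.2%). Vwf and Gja5, an arterial connexin, had the lowest ratios of knockout to wild type means (0.530 and 0.520). Among them Cdh5 was at 41.5 ± 2.21 against 46.7 ± 1.84 FPKM. Both sums were therefore lower in each knockout library. The drop of the 10 contractile genes cannot be set against these sums, because the 10 were chosen for it. The 38 other contractile genes summed to 893.6 to 960.9 FPKM in knockout and 998.55 to 1086.5 FPKM in wild type libraries. Differences in proportion between the lists were not tested.

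The remaining lists also held no called gene. The 15 fibroblast and myofibroblast markers had 0 called and a median log2 fold change of -0.18, and Col3a1, a collagen of vessel walls and loose connective tissue, was at 233.2 ± 54.2 FPKM in knockout and 350.0 ± 3.29 FPKM in wild type libraries (adjusted p = 0.125, limma). Without KO 5 it was called (log2 fold change -0.79, adjusted p = 0.00176), and with voom (adjusted p = 0.0267). KO 5 had 295.8 FPKM, above KO 2 (199.99) and KO 4 (203.9). In 5 of the 15 (Lum, Postn, Col3a1, Dpt and Cd34) each knockout library was below each wild type library (9.54% of all genes). In 1 (Fap) each knockout library was above (15.2% of all genes). On average 11 of the 15 were lower and 4 higher (Pdgfra, Tnc, Fap and Cthrc1, log2 fold changes of 0.13 to 0.22). Postn, the matrix protein periostin, had 25.1, 23.9 and 65.8 FPKM in KO 2, KO 4 and KO 5, against 71.2, 75.3 and 75.1 FPKM in WT 3, WT 4 and WT 5, a ratio of 0.518. It was not called (log2 fold change -1.09, SE 0.35, adjusted p = 0.184, limma) except without KO 5 (-1.55, adjusted p = 0.000233). Dpt (0.474), Mfap5 (0.502) and Pi16 (0.385) also had low ratios of knockout to wild type means, the last 2 with groups that overlapped. The summed level of the list, 4077 to 5063 FPKM in knockout and 4879 to 5679 FPKM in wild type libraries, was mostly Col1a1 (2821 to 3916 and 3522 to 4306 FPKM). The 12 markers of middle ear and airway epithelium summed to 19.4 to 111.7 FPKM in knockout and 410.6 to 767.6 FPKM in wild type libraries, led by Bpifa1, with 0 of 6 called. Their median log2 fold change was -0.59, and 5 of the 6 were lower on average. In 3 of the 6 each knockout library was below each wild type library (9.54% of all genes). Skeletal muscle markers had 0 of 14 called, but 13 were lower on average, with a median log2 fold change of -0.88. In 0 of the 14 were the groups free of overlap. Cardiac markers had 0 of 5 called and a median of -0.09, with 3 lower and 2 higher on average. In 2 of the 5 each knockout library was below each wild type library (9.54% of all genes), and in 1 above (15.2%). The cardiac genes Myl7 and Nppa were listed at 0 in some libraries of both groups or of 1 group. The part of these tissues in the differences of the contractile genes was not tested.

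**Figure D4:**
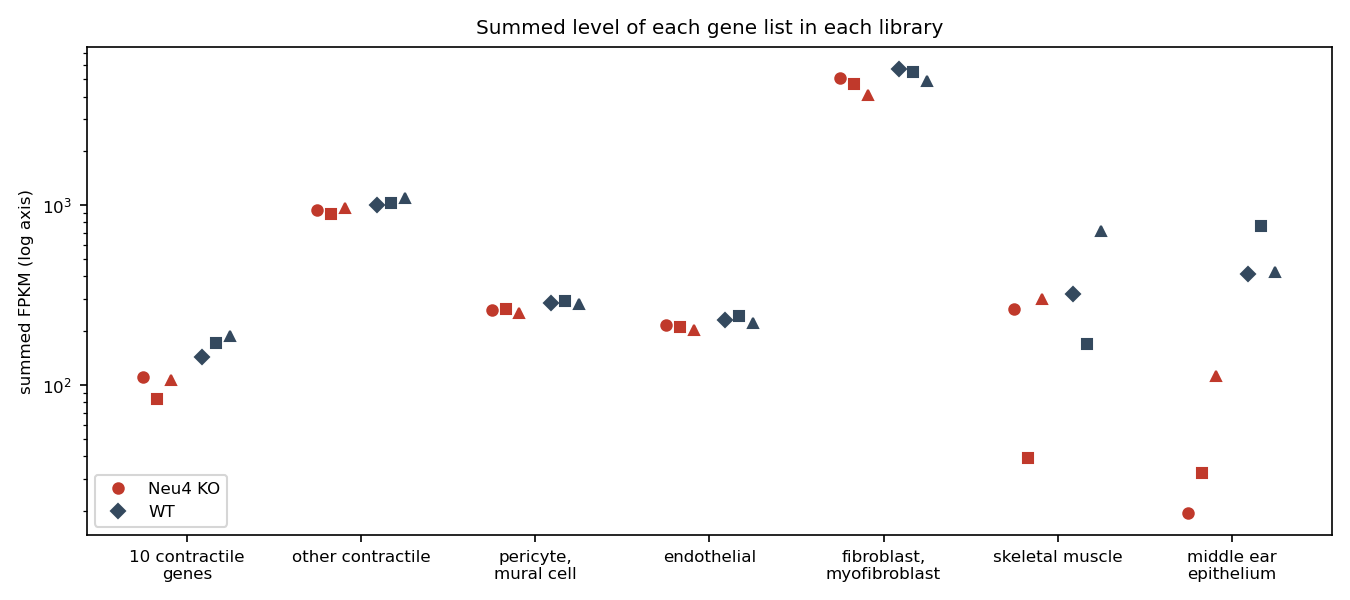
Summed FPKM of each gene list in each library on a log axis, with knockout libraries in red left of wild type libraries in dark blue (circle KO 2, diamond WT 3, squares replicate 4, triangles replicate 5). The 10 contractile genes, the other contractile genes, the pericyte and the endothelial markers are lower in each knockout library, the middle ear markers are lower by the widest margin, and the skeletal muscle markers and the fibroblast markers, whose sum is mostly Col1a1, overlap.

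The genes whose pattern over the 6 libraries lay closest to that of the contractile genes were sought among 8039 genes with a mean FPKM of at least 5. Likeness was the root mean square difference between a gene's centred log2(FPKM + 1) values and the mean of the 8 contractile genes, where a small value means alike. The values were not scaled, so the measure reflects the size of a gene's differences as well as their order. With names of predicted genes, clones and pseudogenes left out, the closest were Mir351 (0.103), Ehd2 (0.111), Myl9 (0.117), Ssc5d (0.117), Prss23 (0.126) and Il11ra1 (0.127). Myl9, which is phosphorylated by the kinase of Mylk and whose promoter is printed above, had 70.4, 69.0 and 81.7 FPKM in KO 2, KO 4 and KO 5, against 86.6, 101.3 and 115.7 FPKM in WT 3, WT 4 and WT 5 (log2 fold change -0.45, SE 0.11, adjusted p = 0.131, limma). In voom Myl9 was called lower (adjusted p = 0.0404). Ehd2, a membrane protein of caveolae, had 18.1, 16.4 and 20.1 FPKM in the knockout libraries, against 25.7, 26.1 and 26.6 FPKM in the wild type libraries. It was called lower (log2 fold change -0.50, SE 0.070, adjusted p = 0.0475, limma). As Ehd2 and Myl9 were picked here for their likeness to genes chosen on this contrast, these calls support nothing. Mir351 rests on 17 to 22 fragments in knockout and 30 to 33 in wild type libraries over 99 bases. Within the 8 contractile genes themselves, Cnn1 lay closest to the mean of the others (0.156), and Des (0.564) and Myh11 (0.488) lay farthest. Myh11 had the same library order as Actg2 but the lowest log2 fold change of the 8 (-1.33).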

How the data were processed

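RNA of 6 mouse cochlea libraries was sequenced with the VAHTS Universal V6 kit, per the labels' protocols. The authors deposited 1 table of FPKM values, with gene identifier, symbol, biotype and position. The build is GRCm38 per the submitters' processing notes, while no source used here names the aligner, counter or strand setting. FPKM times exon length (GENCODE M21) gave whole fragments, within 0.01 plus a relative 1e-06, for 98.3% of values above 0 in each library.

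Genes that reached an FPKM of 1 in 3 or more libraries entered a limma fit on log2(FPKM + 1) (trend, two-sided, Benjamini-Hochberg threshold 0.05), a scale that understates the change of low genes. SDs are over 3 libraries. The planned count tests on recovered fragments were replaced by voom (limma). Tests were checked on simulated data. CArG boxes and stretches of 50 bases were searched in RefSeq promoters and GENCODE M21 transcripts. The software was limma 3.58.1 in R 4.3.3, with pandas 2.3.3, scipy 1.17.1, numpy 2.4.6 and matplotlib 3.10.9 in Python 3.11.15.

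The 10 genes and all lists were chosen with earlier results of these data known. The naming rule took the 10 genes, Neu4, the other actins, up to 4 called genes per list, the highest-level genes up to 3 per list, and the 6 genes of closest pattern. Other genes (such as Gata6, Kcnmb1, Synm, Rgs5, Srf and Tagln2) were named after their values were seen.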

Additional observations from a re-analysis of the deposited data

How the results depend on the processing

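The log2 fold changes of the 8 contractile genes above the filter kept their sign under each alternative that gave them a value, which were other pseudocounts, filters, scaling, no trend, sex as a covariate, a replicate block, voom and leaving out each library. Myh11, Cnn1 and Lmod1 had no value with a mean FPKM of at least 5. Their median log2 fold change of -0.50 ranged from -0.66 to -0.27 with 1 library left out, and was -0.27 without WT 5 and -0.33 without KO 4. The count of genes called depended on the settings, and the cause was not tested. It was 47 as reported, 19 with no filter on low values, 97 with a mean FPKM of at least 5, 19 without a trend, 24 with sex as a covariate and 381 with voom. With 1 library left out it ranged from 12 to 105 (15 without KO 2, 16 without KO 4, 105 without KO 5, 12 without WT 3, 12 without WT 4, 21 without WT 5). Of the 8 genes, 1 was called as reported (0.334% of all genes tested) and 4 with voom (2.76%). With no filter, without a trend or with sex as a covariate 0 were called. With a mean FPKM of at least 5, 2 of the 5 left were called. With 1 library left out the count was 0 to 2 (0 without KO 2, KO 4, WT 4 or WT 5, 2 without KO 5). As the 8 were chosen on this contrast, these counts support nothing. Of the other contractile genes, 1 was called lower as reported, 2 with a mean FPKM of at least 5 or with median-ratio scaling, 0 with sex as a covariate, 4 with voom (which also called 1 higher), and 0 to 2 with 1 library left out (0 without KO 2, KO 4, WT 3, WT 4 or WT 5, 2 without KO 5). With 1 replaced base allowed, 1 of the 6 promoters held a CArG box.

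The numbers 4 and 5 occur in both groups, and deviations from the group means of same-numbered libraries correlated at 0.14 and 0.15, but with 2 pairs nothing shows that the numbers pair the samples. A replicate block, which leaves the comparison to libraries 4 and 5 of each group, gave 22 genes called, with Acta2 in place of Actg2 among the 8 genes. The edgeR and DESeq2 tests planned for recovered fragments were not run, and voom, chosen after seeing the data, was used on those fragments in their place. Low fragment counts limit what can be said of Tagln and Myocd, which had 26 and 48 fragments over all libraries. Why Tagln had so few was not tested.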
